A study of Mus musculus with 2 samples.

Results

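The 4 Id genes of the mouse, Id1, Id2, Id3 and Id4, were followed in single cells of regenerating mammary epithelium. They were taken by name, as a gene family, from a table of 27998 genes, and each of them had counts. In both libraries, red luminal cells of the genotype Fgfr2+/+; R26R mG had been mixed with green basal cells and put into cleared fat pads of female nude mice aged 3 weeks, and cells were sorted by FACS 5 days after surgery. Green basal cells had met an adenovirus carrying Cre and GFP. They were Fgfr2+/+; R26R mG in the Ctrl library (labelled WT) and Fgfr2∆/∆; R26R mG in the Fgfr2 KO library, so that by design only basal donor cells lacked Fgfr2. Nude hosts lack a thymus but keep myeloid and other immune cells, and their fat pad holds fibroblasts and vessels. The experiment had been made to look for signals that pass from basal to luminal cells. Each group had 1 library. No test between groups was possible, and every 95% interval given here covers counting error only, not the spread between mice or between cells.

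Id proteins are helix-loop-helix proteins without the basic region that touches DNA. They bind the E proteins Tcf3, Tcf4 and Tcf12 and hold them, and thereby their partner bHLH factors, away from DNA, which is how they delay differentiation in many tissues. Id1, Id2 and Id3 are widely used as direct targets of BMP signalling through Smad1, Smad5 and Smad9. Id2 is also known for its need in the development of innate lymphoid and dendritic cells, Id1 and Id3 for their part in growing vessels, and Id4 for its presence in basal cells of the mammary gland.

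In the GRCm38 assembly (GENCODE M21 annotation) the 4 protein-coding genes lay on 4 chromosomes: Id1 on the plus strand at chr2:152736251-152737410, Id2 on the minus strand at chr12:25093799-25097140, Id3 on the plus strand at chr4:136143497-136145755 and Id4 on the plus strand at chr13:48261228-48266026. Of the 4, Id4 was the gene that separated the keratin classes most widely below, and the 250 bases upstream of its RefSeq start (GRCm38.p6, plus strand, chr13:48260866-48261115) are shown for that reason. Capitals mark GGCGCC, the core of a BMP-type Smad element, and CCAAT, read on either strand (ATTGG on the other).
Id4: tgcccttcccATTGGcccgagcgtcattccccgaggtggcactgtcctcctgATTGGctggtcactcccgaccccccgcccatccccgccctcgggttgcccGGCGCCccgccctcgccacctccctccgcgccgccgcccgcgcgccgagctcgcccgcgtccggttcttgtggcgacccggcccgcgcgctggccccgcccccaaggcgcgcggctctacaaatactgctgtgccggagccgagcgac
The window held 1 GGCGCC, which begins 148 bases before the start, and 2 CCAAT, at 240 and 198 bases before it. It held no CAGAC, the Smad box (GTCTG on the other strand), and no CANNTG, the E-box to which E proteins bind. Among 32851 promoter windows of the same length, 9.59% held GGCGCC, 33.8% CCAAT, 42.2% CAGAC and 66.2% CANNTG. Its GC content was 75.6%, against a median of 52.4% over these windows. No measurement here bears on these letters.

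Cells were sorted into classes by their UMIs (unique molecular identifiers, 1 for each captured RNA molecule). Any UMI of Ptprc, which encodes CD45, made a cell immune. The rest were split by 4 keratins: cells whose UMIs of Krt14 and Krt5 outnumbered those of Krt8 and Krt18 were called basal keratin cells, and cells with the reverse were called luminal keratin cells. The Ctrl library had 268 cells, of which 68 were basal keratin, 117 luminal keratin and 73 immune. The Fgfr2 KO library had 86 cells, with 22, 31 and 23 in the same order. A further 10 cells of each library had equal numbers and entered no class. Median depth was 16301 UMIs in Ctrl and 10485 in Fgfr2 KO cells. The libraries shared 0 barcodes. The keratin classes were not pure. Of the Fgfr2 KO cells, 5 of 22 basal and 11 of 31 luminal keratin cells had under 10 UMIs of the 4 keratins, against 5 of 68 and 19 of 117 in Ctrl. Many of those cells had more UMIs of immune, fibroblast or endothelial genes than of keratins. A stricter class with at least 10 keratin UMIs, holding 63 basal and 98 luminal cells in Ctrl and 17 and 20 in Fgfr2 KO, is therefore given beside the rule for the levels and ratios of the Id genes. In it the immune list summed to between 248 and 814 CPM (counts per 1000000 UMIs of the class), and Epcam, an epithelial adhesion gene, was present in 94.1 to 100% of cells. The fibroblast list was at 1512 and 1293 CPM in basal and 1564 and 656 CPM in luminal cells of Ctrl and Fgfr2 KO. It outnumbered the keratins in 6 of 63 and 0 of 17 basal cells, and in 15 of 98 and 1 of 20 luminal cells. The immune class was also mixed. A single Ptprc UMI was all that 35 of 73 Ctrl and 12 of 23 Fgfr2 KO cells of it had, and 34.2% and 34.8% had Epcam. Not all cells had the markers of the label that both libraries carry, epithelial cells. Fgfr2 itself had 42 UMIs in Ctrl basal keratin cells (32.4 CPM) and 7 in those of Fgfr2 KO (21.9 CPM). The table does not show which exons a molecule held, so these counts do not check the deletion.

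All 4 genes were detected, in different numbers of cells. Id2 had 2396 UMIs in 287 of 354 cells, Id3 had 1548 in 207, Id4 had 290 in 84 and Id1 had 258 in 52. Id1 was concentrated in very few cells: 2 cells held over 50% of its UMIs, while 46 cells were needed for Id2, 17 for Id3 and 15 for Id4. No Id gene was found in 24 cells, 1 in 122 cells, 2 in 131, 3 in 62 and all 4 in 15.

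**Figure D1:**
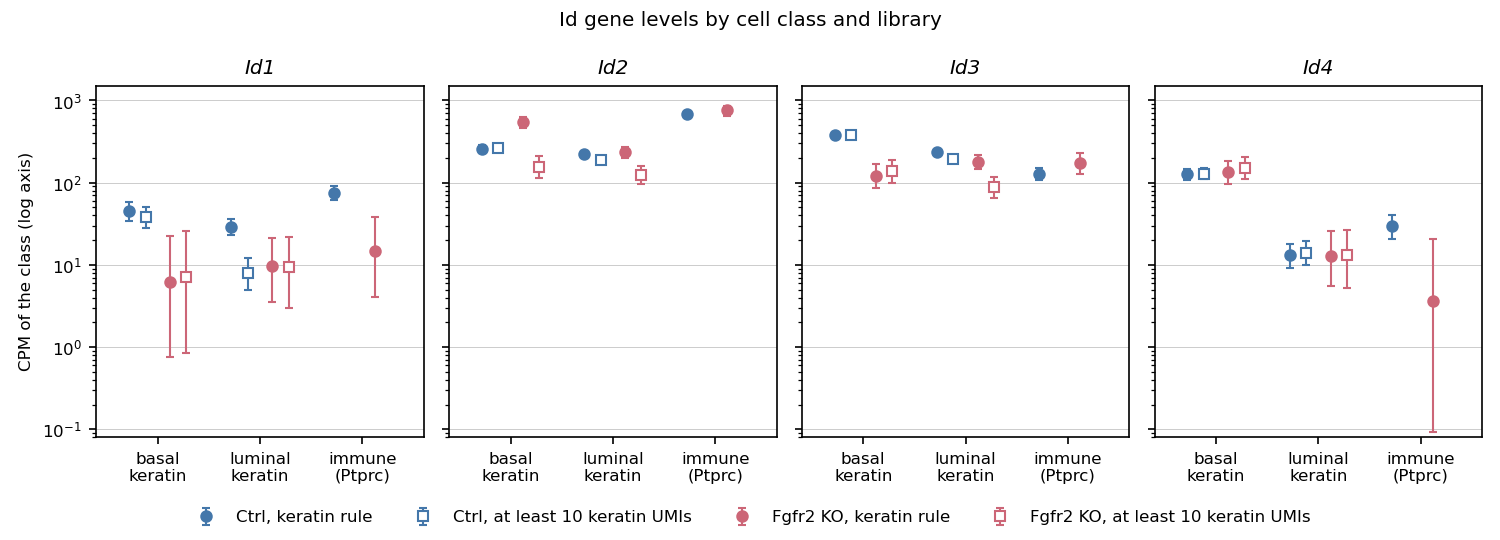
Level of each Id gene (CPM, log axis) in basal keratin, luminal keratin and immune cells of the Ctrl (blue) and Fgfr2 KO (red) libraries, by the keratin rule (filled circles) and in cells with at least 10 keratin UMIs (open squares); bars are exact Poisson 95% intervals. Id4 sat at 126 and 135 CPM in basal and at 13.1 and 13.0 CPM in luminal keratin cells of Ctrl and Fgfr2 KO, while Id2 was at 677 and 755 CPM in immune cells.

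Basal and luminal cells of the Ctrl library differed most in Id4. Its level was 126 CPM in basal (163 UMIs, 95% interval 107 to 147) and 13.1 CPM in luminal keratin cells (37 UMIs, 9.25 to 18.1), a 9.58-fold difference (log2 ratio 3.26, 2.74 to 3.82). In Fgfr2 KO the 2 levels were 135 CPM (43 UMIs, 97.4 to 181) and 13.0 CPM (8 UMIs, 5.60 to 25.5), a 10.4-fold difference (log2 ratio 3.38, 2.27 to 4.68). The classes stood apart in both libraries, and the difference was as large among cells with at least 10 keratin UMIs (log2 ratio 3.19 in Ctrl and 3.54 in Fgfr2 KO). No single cell carried it, since the cell with the most Id4 held 7.98% of the UMIs of Ctrl basal keratin cells and 18.6% of those of Fgfr2 KO.

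Detection followed the same order. Id4 was found in 64.7% of Ctrl basal keratin cells (44 of 68, 52.2 to 75.9%) and 13.7% of luminal keratin cells (16 of 117, 8.02 to 21.3%), and in 59.1% (13 of 22) and 12.9% (4 of 31) of those of Fgfr2 KO. With every cell thinned to 5393 UMIs these shares were 41.5% and 2.65% in Ctrl and 36.8% and 3.70% in Fgfr2 KO. Of immune cells, 4.41% in Ctrl (3 of 68) and 0 of 16 in Fgfr2 KO had it after thinning. Median depths before thinning were 12228 and 6729 UMIs, against 20160 and 15029 UMIs in luminal keratin cells. The immune class is mixed and no clean measure of free RNA: 1 Ctrl cell of it with 33 Id4 UMIs had 165 of Krt14 and Krt5. Thinned to 5000 UMIs, the shares were 3.54% and 11.1% (3 of 27) in luminal keratin and 4.41% and 5.88% in immune cells of Ctrl and Fgfr2 KO. All these intervals overlapped, so detection alone does not set luminal keratin cells apart from the mixed immune class. How much of the luminal Id4 was free RNA cannot be read from this comparison. The Id4 UMIs of luminal cells were not spread evenly, as their keratin balance and subsets show.

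Id1 was also higher in basal cells of the Ctrl library, once cells with few keratin UMIs were set aside. By the rule it stood at 44.8 CPM in basal (58 UMIs) and 28.7 CPM in luminal keratin cells (81 UMIs), a log2 ratio of 0.64 (0.13 to 1.14). One luminal keratin cell with 7 keratin UMIs held 57 of those 81 UMIs. With at least 10 keratin UMIs the levels were 38.5 CPM (48 UMIs) and 7.99 CPM (21 UMIs), a log2 ratio of 2.27 or 4.82-fold, and without the top cell of each class it was 2.37. Where the leading keratin pair had to hold at least 80% of keratin UMIs, with no minimum of such UMIs, the direction turned (18 and 74 UMIs, log2 ratio −0.33, −1.16 to 0.43). In Fgfr2 KO, Id1 had 2 UMIs in basal keratin cells and 6 in luminal keratin cells, at 6.26 and 9.72 CPM, which is too few to order the classes (log2 ratio −0.64, −3.98 to 1.85).

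Id3 was moderately higher in Ctrl basal cells and Id2 hardly differed. Id3 measured 381 CPM in basal and 235 CPM in luminal keratin cells (493 and 661 UMIs, log2 ratio 0.70, 0.53 to 0.87), or 375 and 195 CPM with at least 10 keratin UMIs (log2 ratio 0.94). Id2 measured 259 and 225 CPM (335 and 634 UMIs, log2 ratio 0.20, 0.01 to 0.39), or 263 and 189 CPM with at least 10 keratin UMIs (log2 ratio 0.48). The mean of per-cell CPM of Id2 had the other direction by the rule (245 and 311 CPM, log2 ratio −0.34) and the same direction with at least 10 keratin UMIs (252 and 201 CPM).

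In the Fgfr2 KO library the order of Id3 depended on the cells admitted, and Id2 was higher in basal cells beyond counting error by the rule but not in the stricter class. Id3 stood at 122 CPM in basal and 180 CPM in luminal keratin cells by the rule (39 and 111 UMIs, log2 ratio −0.56, −1.12 to −0.02). A single basal cell held 34 of the 39 UMIs, and a single luminal keratin cell with 2 keratin and 277 fibroblast-list UMIs held 57 of the 111. The log2 ratio was 0.65 with at least 10 keratin UMIs and −1.60 when the top cell of each class was left out as well. Id2 stood at 545 and 233 CPM by the rule (174 and 144 UMIs, log2 ratio 1.22, 0.90 to 1.55), but at 155 and 125 CPM with at least 10 keratin UMIs (44 and 67 UMIs, log2 ratio 0.32, −0.27 to 0.89). Of the 174 UMIs, 75 and 48 came from 2 cells with 1 keratin UMI each that are described with the dendritic genes. The mean of per-cell CPM in the stricter class had the other direction, at 138 CPM in basal and 155 CPM in luminal cells.

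Read against all genes, 1 of the 4 Id genes (Id4) was at least 2-fold higher in Ctrl basal than luminal keratin cells, where 5.07% of 9838 genes with at least 20 UMIs were, and none was 2-fold lower, where 9.65% were. With at least 10 keratin UMIs it was 2 of 4 (Id1 and Id4) against 5.5%, and none lower against 9.05%. In Fgfr2 KO it was 2 of 4 (Id2 and Id4) against 7.23% of 5174 genes by the rule, and 1 of 4 (Id4) against 7.33% with at least 10 keratin UMIs. Id1 had under 20 UMIs there and could not be counted in either, which leaves 3 Id genes. The median gene was itself shifted, by −0.12 in Ctrl and −0.16 in Fgfr2 KO on the log2 scale, and ratios relative to it are larger by that amount.

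**Figure D2:**
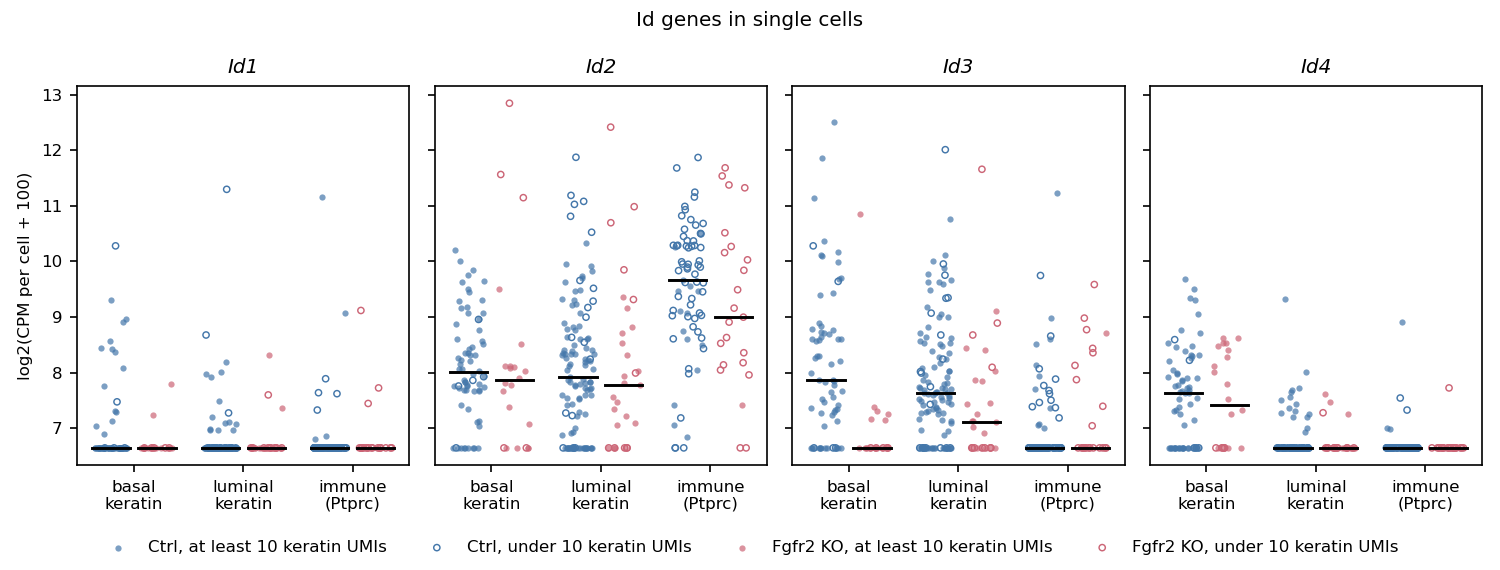
Each point is 1 cell, with log2(CPM per cell + 100) of an Id gene on the y axis and its class and library on the x axis; open points have under 10 keratin UMIs, black lines are medians, and the lowest row of points is 0 UMIs. Id4 is spread over most basal keratin cells, Id1 rests on a few cells, and the highest Id2 values among Fgfr2 KO basal and luminal keratin cells belong to open points.

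The keratin balance of single cells gave the same picture as a gradient. Among Ctrl cells without Ptprc and with at least 10 keratin UMIs, Id4 was at 3.07 CPM (53 cells) where Krt14 and Krt5 made up under 10% of the 4 keratins' UMIs, at 24.9 CPM (45 cells) from 10 to 50%, at 123 CPM (53 cells) from 50 to 90% and at 157 CPM (11 cells) above 90%. The first 3 intervals did not overlap (0.837 to 7.87, 17.1 to 34.9 and 103 to 145), while the highest bin, 95.7 to 242 CPM, overlapped the one before. Fgfr2 KO cells had 12.6, 14.2, 136 and 184 CPM in 17, 3, 11 and 6 cells. The first 2 of these bins rested on 5 and 2 UMIs (4.10 to 29.5 and 1.72 to 51.4 CPM), so no order can be read between them, while the third, 89.0 to 200 CPM, lay above both.

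Id1 and Id3 were highest in the most basal bin of the Ctrl library, with a large share from single cells. Id1 was at 13.1, 3.02, 31.5 and 118 CPM along the bins, and at 73.2 CPM in the last one without its top cell. Id3 was at 192, 198, 263 and 1355 CPM, and at 622 CPM in the last bin without a cell that held 105 of its 173 UMIs there. That cell also had 10 Id4 and 7 Id1 UMIs. Id2 was flatter, at 200, 178, 250 and 353 CPM. In Fgfr2 KO the 6 cells of the last bin had 1 Id1 UMI (10.8 CPM), and their Id3 level of 379 CPM was 13.7 CPM without 1 cell.

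**Figure D3:**
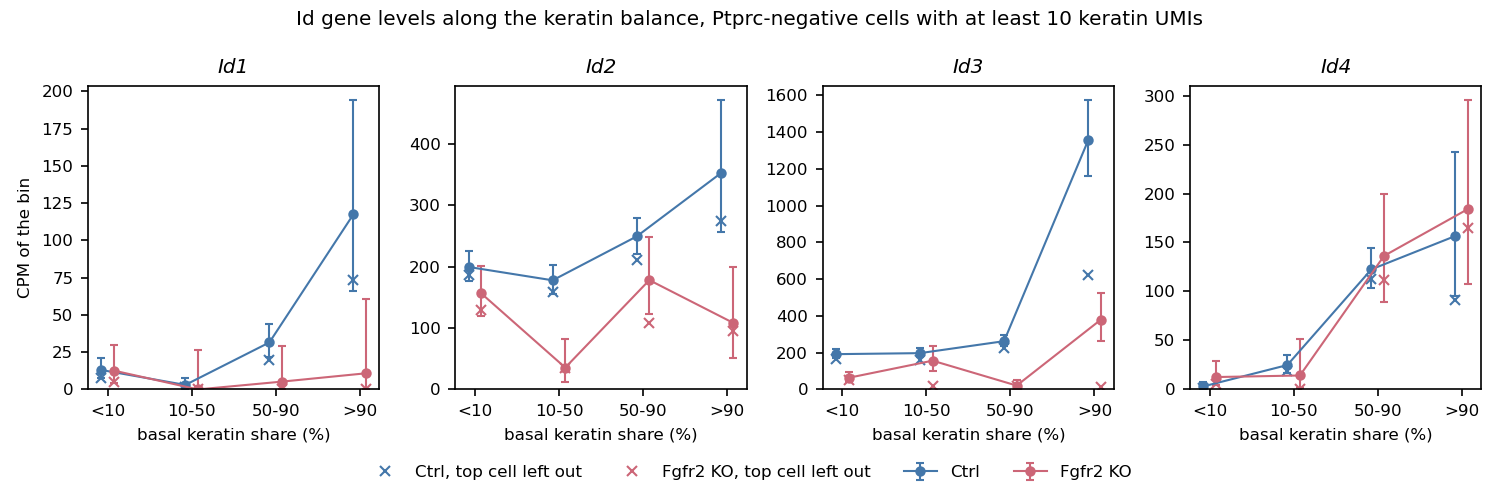
Id gene level (CPM of all cells of a bin, with exact Poisson 95% intervals) against the share of basal keratins, Krt14 and Krt5, among the UMIs of Krt14, Krt5, Krt8 and Krt18; crosses leave out the cell with the most UMIs of the gene. Id4 goes from 3.07 to 157 CPM in Ctrl and from 12.6 to 184 CPM in Fgfr2 KO, and the Ctrl Id3 value of 1355 CPM in the last bin drops to 622 CPM without 1 cell.

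Luminal cells were not uniform in their Id genes. Those with at least 10 keratin UMIs were split by which marker list had more UMIs, that of hormone-sensing cells (Esr1, Pgr, Prlr, Areg and others) or that of secretory progenitors (Elf5, Kit, Csn3, Ltf and others). In Ctrl, Id3 was higher in the 70 cells of the first kind, at 246 CPM (467 UMIs, 224 to 269), than in the 28 of the second, at 61.8 CPM (45 UMIs, 45.1 to 82.7). Id4 had the opposite order, at 4.21 CPM (8 UMIs, 1.82 to 8.29) and 39.8 CPM (29 UMIs, 26.7 to 57.2). It was found in 6 of 70 and 10 of 28 cells, whose median depths were 23532.5 and 19777 UMIs, so the deeper cells had the lower Id4. Without the top cell of each kind Id3 was at 222 and 52.3 CPM and Id4 at 3.19 and 28.1 CPM. Id2 did not separate them, at 190 CPM (171 to 211) and 184 CPM (154 to 218).

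Fgfr2 KO had 14 and 6 such cells. Id3 again stood higher in the hormone-sensing kind, at 107 CPM (43 UMIs, 77.6 to 144) against 29.6 CPM (4 UMIs, 8.06 to 75.8). One hormone-sensing cell held 21 of the 43 UMIs. Without the top cell of each kind the levels were 69.5 CPM (22 UMIs) and 34.3 CPM (3 UMIs), so the order rests on few counts. Id4 had 5 and 2 UMIs there, at 12.5 and 14.8 CPM, and no order can be read from them.

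Immune cells were marked by Id2. In Ctrl it measured 677 CPM in immune cells (845 UMIs, 633 to 725) against 236 CPM over both keratin classes (969 UMIs), a log2 ratio of 1.52 (1.39 to 1.66). In Fgfr2 KO it measured 755 CPM (205 UMIs, 655 to 866) against 340 CPM (318 UMIs), a log2 ratio of 1.15 (0.89 to 1.41). Id2 was found in 70 of 73 and 21 of 23 immune cells. After thinning, 88.2% and 87.5% of immune cells still had it, against 60.0% and 57.9% of basal and 46.0% and 51.9% of luminal keratin cells. The log2 ratio was 1.67 in Ctrl and 2.48 in Fgfr2 KO against cells with at least 10 keratin UMIs, and 1.82 and 1.67 when immune cells needed at least 2 Ptprc UMIs. Among the lists of immune cell types alone, the myeloid list (Lyz2, Csf1r, C1qa and others) led in 71 of 73 Ctrl and 17 of 23 Fgfr2 KO immune cells. Id2 was at 676 CPM (631 to 723) and 551 CPM (460 to 654) in them. Epcam was found in 35.2% and 35.3% of these cells, so the set was mixed as well.

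Of the sets of cells described here, Id2 was highest in a small one with genes of mature dendritic cells. In Fgfr2 KO, 6 cells had at least 10 UMIs of the dendritic list, a set chosen after their values had been seen, and in Ctrl there was none. They held 209 Id2 UMIs, 12 to 75 each, at 3127 CPM together (2717 to 3581). The cell with 75 Id2 UMIs had 34 UMIs of Ccr7, the receptor that leads dendritic cells to lymph nodes, and 9 of Ccl22. The next, with 48 Id2 UMIs, had 49 of Ccr7, 6 of Ccl22 and 93 of Fscn1, an actin-bundling gene of mature dendritic cells. Ccr7 and Ccl22 made up all of the 43 and 55 dendritic list UMIs of these 2 cells, which had none of the other genes of the list. Fscn1 is not on it. The 2 cells lacked Ptprc UMIs and had 1 keratin UMI each, which put them among the basal keratin cells. Cells without Ptprc, with under 10 keratin UMIs and led by the immune list had Id2 at 1185 CPM in Ctrl (16 cells) and 1944 CPM in Fgfr2 KO (19 cells, the same 2 among them). Id2 was found in 15 and 11 of these cells, with medians of 670 and 281 CPM a cell. These levels lay above the 263 and 155 CPM of the basal and the 189 and 125 CPM of the luminal cells with at least 10 keratin UMIs.

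Id1 was a mark of a few cells with endothelial genes. In Ctrl, 5 cells had at least 10 UMIs of the endothelial or pericyte list (25 to 93), likewise a set chosen after its values had been seen. They held 154 of the 246 Id1 UMIs of that library, at 1501 CPM (1274 to 1758), with 2 to 73 UMIs each. Id3 was at 1901 CPM in the same 5 cells (195 UMIs), Id2 at 390 CPM and Id4 at 19.5 CPM (2 UMIs). The cell with 73 Id1 UMIs had 17 of Cdh5, 17 of Cldn5 and 9 of Pecam1, all genes of endothelial junctions, and the cell with 57 had 10, 61 and 11. These were not clean profiles, as the first cell had 94 fibroblast-list against 55 endothelial or pericyte list UMIs and the second 77 against 93. Another cell, with 14 Id1 UMIs, had 121 against 55, and in the rest the endothelial or pericyte list led. The 5 cells are called endothelial below by their UMIs of that list alone. The rule had placed the 5 cells in the immune (2), luminal keratin (2) and basal keratin (1) classes. Fgfr2 KO had 1 cell with as many list UMIs (24), which also had 277 fibroblast-list UMIs, and it had 57 Id3 and no Id1 UMIs. Fibroblast-like cells shared the Id3 signal: the 13 Ctrl cells with under 10 keratin UMIs that were led by the fibroblast list had Id3 at 588 CPM (469 to 727).

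**Figure D4:**
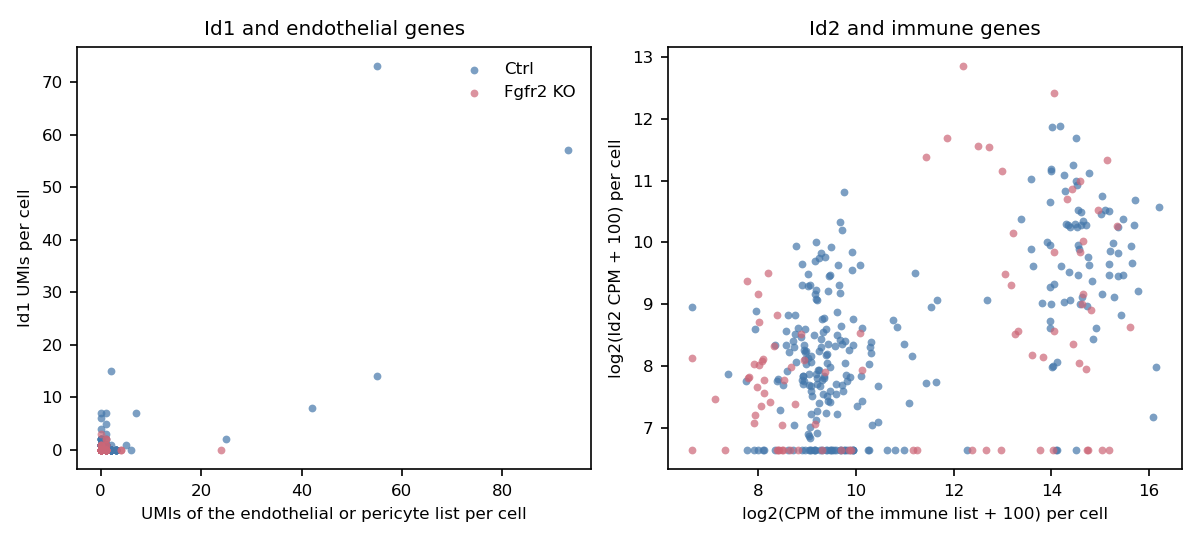
Left, Id1 UMIs against the UMIs of the endothelial or pericyte list in each cell; right, log2(Id2 CPM + 100) against log2(CPM of the immune list + 100) in each cell, with Ctrl in blue and Fgfr2 KO in red. The 2 cells with 73 and 57 Id1 UMIs have 55 and 93 list UMIs, and the cells rich in immune genes reach the highest Id2 values.

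What the immune class showed for the other 3 genes depended on such cells. By the rule, Id1 in Ctrl was higher in immune than in keratin cells (75.4 against 33.8 CPM, log2 ratio 1.16, 0.76 to 1.54). Without the cells with at least 10 endothelial or pericyte list UMIs it was lower (5.92 against 17.7 CPM, log2 ratio −1.58, −2.94 to −0.46). Id3 was lower in Ctrl immune cells (128 against 281 CPM, log2 ratio −1.13, −1.38 to −0.89), and lower still without the endothelial cells (log2 ratio −2.12). Id4 was at 29.7 against 48.6 CPM (log2 ratio −0.71, −1.26 to −0.20). Of its 37 UMIs there, 33 came from 1 cell with 1 Ptprc and 200 keratin UMIs, and without it the level was 3.44 CPM. In Fgfr2 KO the immune cells had 4 Id1 UMIs (14.7 CPM), 47 Id3 UMIs (173 CPM, of which 27 came from 1 cell with 611 keratin UMIs) and 1 Id4 UMI (3.68 CPM, log2 ratio −3.89, −9.22 to −1.34). By the rule, 2 of the 4 genes (Id1 and Id2) were at least 2-fold higher in Ctrl immune cells, where 9.15% of all genes were, and 1 (Id3) at least 2-fold lower, where 21.6% were. In Fgfr2 KO, where Id1 had under 20 UMIs, 1 of the other 3 (Id2) was higher against 10.7% and 1 (Id4) lower against 18.7%. Set against cells with at least 10 keratin UMIs, Id1 and Id2 were again 2-fold higher in Ctrl, where 9.51% of all genes were, while Id3, at 128 against 253 CPM (log2 ratio −0.98), was no longer 2-fold lower, where 21.4% were. In Fgfr2 KO the same comparison had Id2 higher, against 11.3%, and Id4 lower, against 19.5%. The median gene was shifted by −0.34 in Ctrl and −0.21 in Fgfr2 KO.

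The comparison of the libraries asked what loss of Fgfr2 in basal donor cells went with. The keratin class of a cell does not give its donor. The paper reports that basal donor cells lacking Fgfr2 took on a luminal fate in transplants, so either class may mix donors. Id4 did not differ beyond counting error in either keratin class by the rule. Id3 and Id1 were lower in Fgfr2 KO basal cells, Id3 was lower in luminal cells with at least 10 keratin UMIs as well, and the sign of Id2 depended on the cells admitted. With 1 library a group, and with other cell types in unequal numbers, the part of genotype, of mouse and of preparation cannot be told apart.

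Basal keratin cells had Id3 at 381 CPM in Ctrl, from 493 UMIs (348 to 416). The Fgfr2 KO level was 122 CPM, from 39 UMIs (86.8 to 167), and the log2 ratio −1.64 (−2.15 to −1.17). With at least 10 keratin UMIs it was 375 and 138 CPM (log2 ratio −1.44, −1.95 to −0.97). The 34 UMIs of 1 Fgfr2 KO cell made up most of what was left, and the ratio was −3.96 with each leading cell set aside. Detection was lower too, with 52 of 68 Ctrl cells (76.5%, 64.6 to 85.9%) against 6 of 22 Fgfr2 KO cells (27.3%, 10.7 to 50.2%), and after thinning at 61.5% and 15.8%. In 11 of 17 Fgfr2 KO basal cells with at least 10 keratin UMIs no Id3 was seen, and 5 of the other 6 had 1 UMI.

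Luminal keratin cells had the same direction for Id3, with 235 CPM against 180 CPM (661 Ctrl and 111 Fgfr2 KO UMIs, log2 ratio −0.38, −0.69 to −0.09). With at least 10 keratin UMIs it was 195 and 87.7 CPM (512 and 47 UMIs, log2 ratio −1.15, −1.62 to −0.72), and −1.61 without the top cells. The fibroblast list was also lower in these Fgfr2 KO cells, at 656 CPM against 1564 CPM in Ctrl, and its part in the Id3 difference was not tested. The hormone-sensing kind alone, in which Id3 was higher, had 246 and 107 CPM. After thinning, the shares of luminal keratin cells with Id3 were 47.8% (54 of 113, 38.3 to 57.4%) and 44.4% (12 of 27, 25.5 to 64.7%), which overlapped.

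Id1 in basal keratin cells went from 44.8 CPM (58 UMIs) to 6.26 CPM (2 UMIs), a log2 ratio of −2.84 (−5.92 to −0.92), and from 38.5 to 7.07 CPM with at least 10 keratin UMIs (log2 ratio −2.45, −5.53 to −0.52). It was found in 16 of 68 and 2 of 22 cells, and after thinning in 13.8% (6.53 to 24.7%) and 5.26% (0.133 to 26.0%), which overlapped. In luminal keratin cells the rule gave 28.7 and 9.72 CPM (log2 ratio −1.56, −3.05 to −0.38). The endothelial cell above made up that difference: with at least 10 keratin UMIs the levels were 7.99 and 9.32 CPM (21 and 5 UMIs, log2 ratio 0.22, −1.54 to 1.67).

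Id2 in basal keratin cells was higher in Fgfr2 KO by the rule, at 545 CPM against 259 CPM (log2 ratio 1.07, 0.80 to 1.34), and lower with at least 10 keratin UMIs, at 155 CPM (44 UMIs, 113 to 209) against 263 CPM (328 UMIs, 236 to 293), a log2 ratio of −0.76 (−1.25 to −0.30). The 2 Ccr7-bearing cells held 123 of the 174 UMIs behind the first value. In luminal keratin cells it was at 233 and 225 CPM by the rule (log2 ratio 0.05, −0.22 to 0.32) and at 125 and 189 CPM with at least 10 keratin UMIs (log2 ratio −0.59, −0.99 to −0.22). After thinning, Id2 was found in 57.9% of Fgfr2 KO and 60.0% of Ctrl basal keratin cells, shares that overlapped.

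Id4 was at 135 CPM in Fgfr2 KO and 126 CPM in Ctrl basal keratin cells (log2 ratio 0.10, −0.42 to 0.59), and at 13.0 and 13.1 CPM in luminal keratin cells (log2 ratio −0.018, −1.33 to 1.11). With at least 10 keratin UMIs the log2 ratios were 0.24 (−0.28 to 0.74) in basal and −0.11 (−1.52 to 1.08) in luminal cells. Where the leading keratin pair had to hold at least 80%, the luminal levels were 10.9 CPM in Fgfr2 KO (6 UMIs) and 4.30 CPM in Ctrl (9 UMIs), a log2 ratio of 1.34 (−0.43 to 2.99). In immune cells Id2 did not differ beyond counting error by the rule (log2 ratio 0.16, −0.07 to 0.38). That class held 4 cells with at least 10 dendritic list UMIs in Fgfr2 KO and none in Ctrl. In cells led by the myeloid list Id2 was at 551 CPM in Fgfr2 KO (460 to 654) and 676 CPM in Ctrl (631 to 723), which overlapped. Over all immune cells Id1 had a log2 ratio of −2.35 (−4.26 to −0.95), which was 1.32 without the endothelial cells. Id3 had one of 0.43 (−0.07 to 0.91), which was 1.55 without them. Id4 had one of −3.01 that rested on 1 UMI in Fgfr2 KO and, in Ctrl, on the cell with 200 keratin UMIs.

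**Figure D5:**
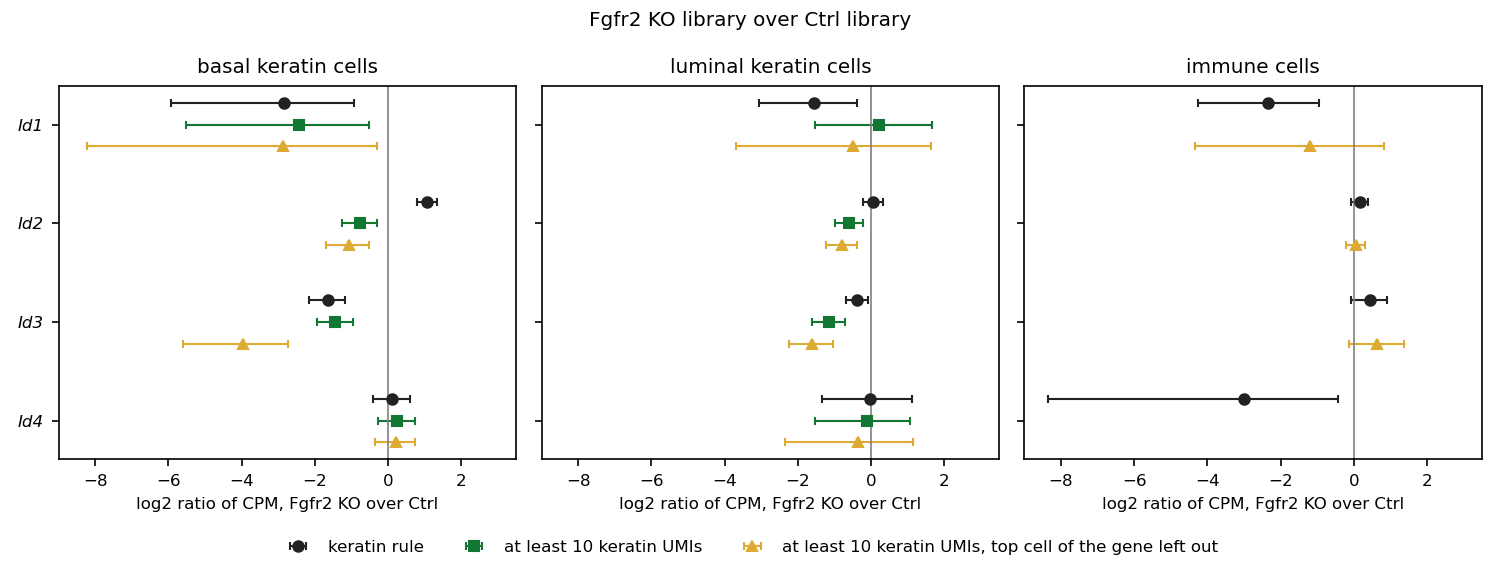
Log2 ratio of CPM, Fgfr2 KO over Ctrl, for each Id gene in basal keratin, luminal keratin and immune cells, by the rule (circles), with at least 10 keratin UMIs (squares) and with the top cell of the gene left out too (triangles); bars are exact 95% intervals for counting error. Id4 stays near 0 in both keratin classes, Id3 lies below 0 in both, and Id2 in basal keratin cells goes from 1.07 to −0.76 once cells with few keratin UMIs are set aside.

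Among all genes with at least 20 UMIs, 11.2% were at least 2-fold lower and 4.36% at least 2-fold higher in Fgfr2 KO basal keratin cells. Of the 4 Id genes 2 were lower (Id1 and Id3) and 1 higher (Id2) by the rule, and 2 lower (the same genes) and none higher with at least 10 keratin UMIs, against 11.5% and 4.14% of all genes. In luminal keratin cells 1 was lower by the rule (Id1, against 8.58%) and 1 with at least 10 keratin UMIs (Id3, against 8.96%), and none was higher, against 4.06% and 3.94%. In immune cells 2 were lower (Id1 and Id4, against 12.2%) and none was higher, against 7.8%. Without the endothelial cells Id1 had 4 and 7 UMIs there, too few to be counted, Id4 was lower and Id3 at least 2-fold higher. The median gene was shifted by −0.12 in basal keratin, −0.06 in luminal keratin and −0.03 in immune cells.

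The 4 genes kept different company over the 354 cells, as a description in which cells of a library share its depth and capture. Id4 went with contractile and basal genes: its nearest among 4002 genes were Mylk (Pearson r = 0.64), a myosin kinase, Col9a3 (0.62), Krt5 (0.59), Mia (0.58) and Myl9 (0.57). They held between 0.52 and 0.64 within the cells with at least 10 keratin UMIs. Id2 went with immune genes, Bcl2a1b (0.63), Slfn2 (0.57), Srgn (0.55), Ctss (0.55) and Bcl2a1d (0.54), and with none of these within the cells with at least 10 keratin UMIs (between −0.07 and 0.03). Id1 and Id3 went with each other (0.40). Id1 also went with Ecscr (0.41), a surface gene of endothelial cells, and with Gng11 (0.38), Fxyd6 (0.36) and Fabp4 (0.34). Within the cells with at least 10 keratin UMIs these were −0.036, −0.0099, 0.18 and 0.20, and within Fgfr2 KO cells they lay between −0.075 and 0.093, and the Ctrl library holds the 5 endothelial cells. Id3 went with Igfbp7 (0.39), Angptl4 (0.39), Maged1 (0.38) and Hspg2 (0.37), which were 0.23, 0.35, 0.20 and 0.12 within the cells with at least 10 keratin UMIs. The pair of Id1 and Id3 was 0.32 there and 0.21 within Fgfr2 KO cells. The other pairs of Id genes lay between −0.16 and 0.18 over all cells. Id2 with Id3 was −0.16 over all cells and 0.19 within the cells with at least 10 keratin UMIs, and Id2 with Id4 −0.093 and 0.13. Of the cells with Id1, 41 of 52 also had Id3, against 55.0% of the cells without Id1, and the cells with Id1 were deeper, with a median of 17673 UMIs.

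The partners and regulators of the Id genes were read in the cells with at least 10 keratin UMIs, except where the rule is named. Their lists were chosen with earlier results of these data known. The lists of BMP inhibitors and of other BMP target genes share Smad6, Smad7 and Bambi, which count in both. Counts past 2-fold between basal and luminal cells stand against 5.5% of all genes higher and 9.05% lower in Ctrl, and 7.33% and 13.8% in Fgfr2 KO. E proteins, which Id proteins bind, differed little between the 2 classes in Ctrl: Tcf3 stood at 66.6 CPM in basal and 73.4 CPM in luminal cells, Tcf4 at 53.0 and 49.1 CPM and Tcf12 at 49.0 and 49.9 CPM, and none of the 3 was past 2-fold (median log2 ratio −0.03, against −0.11 over all genes). In Fgfr2 KO all 3 lay below 0 and Tcf4 was 2-fold lower in basal cells, at 38.9 and 78.4 CPM (11 and 42 UMIs, log2 ratio −1.01, −2.12 to −0.029), while by the rule none of the 3 was past 2-fold. Of 9 bHLH genes with at least 20 UMIs in Ctrl none was 2-fold higher and 1 was 2-fold lower in basal cells. There Hes1 was at 597 and 600 CPM, Bhlhe40 at 316 and 392 CPM and Bhlhe41 at 353 and 314 CPM. Of 7 in Fgfr2 KO 3 were higher in basal cells, namely Bhlhe41 (527 and 108 CPM, log2 ratio 2.28), Myc (1.24) and Mxd1 (1.21), and 2 were lower, Hes1 (−1.72) and Hes6 (−1.74), named after their values were seen. The intervals of Mxd1 and Hes6 crossed 0.

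BMP ligands were divided between the classes. Bmp7 stood at 53.0 CPM in basal and 10.3 CPM in luminal cells of Ctrl (66 and 27 UMIs, log2 ratio 2.37, 1.70 to 3.07), Bmp2 at 6.42 and 32.3 CPM (8 and 85 UMIs, log2 ratio −2.33, −3.59 to −1.29), and Bmp1, a protease despite its name, at 65.0 and 58.6 CPM. Of 4 ligands of the list with at least 20 UMIs, 1 was 2-fold higher and 2 were 2-fold lower in basal cells. Receptors and Smads differed less: of 5 receptors 1 was 2-fold lower and none higher, with Bmpr1a at 24.9 and 41.5 CPM, Bmpr2 at 33.7 and 22.1 CPM and Acvr1 at 31.3 and 22.1 CPM, and of 3 Smads none was past 2-fold. BMP inhibitors were the list with the widest spread, 3 of 8 higher and 1 lower. Fst, which binds activins and BMPs, was at 422 and 72.7 CPM (log2 ratio 2.54) and Sostdc1, a secreted BMP and Wnt inhibitor, at 192 and 13.3 CPM (log2 ratio 3.85), while Smad7 was at 54.6 and 78.0 CPM. Of 7 other BMP target genes 2 were higher and 1 lower, with Jun at 1497 and 1107 CPM and Bambi at 43.4 and 18.6 CPM (log2 ratio 1.22, 0.63 to 1.81). Cdk inhibitors, whose genes Id proteins and their partners are known to act on, had 1 of 6 higher and 1 lower in Ctrl. There Cdkn1a was at 157 and 222 CPM, Cdkn2a at 16.9 and 99.3 CPM and Cdkn2b at 40.9 and 65.1 CPM. In Fgfr2 KO 2 of 3 Cdk inhibitors with enough UMIs were lower in basal cells (1 of 4 by the rule) and none was higher. There 2 of 4 BMP inhibitors and 1 of 3 BMP targets were higher and none lower, and no ligand, receptor or Smad was past 2-fold.

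Between the libraries, counts past 2-fold stand against 11.5% of all genes lower and 4.14% higher in basal cells, and 8.96% lower and 3.94% higher in luminal cells. E proteins stayed within 2-fold, with 3 of 3 doing so in basal and in luminal cells. Tcf3, Tcf4 and Tcf12 had log2 ratios of −0.54, −0.45 and −0.21 in basal cells, each with an interval across 0, and 0.16, 0.68 (0.14 to 1.19) and 0.07 in luminal cells. The BMP target Jun had the opposite sign to Id3: it stood at 2496 CPM in Fgfr2 KO and 1497 CPM in Ctrl basal cells (log2 ratio 0.74, 0.61 to 0.86), and at 1503 and 1107 CPM in luminal cells (0.44, 0.33 to 0.55). Smad7 and Bambi, a decoy receptor, were at −0.49 (−1.56 to 0.44) and 0.55 (−0.30 to 1.35) in basal cells. Of 5 other BMP targets, 1 was 2-fold higher and none lower in basal cells, and of 7 in luminal cells none was higher and 1 lower.

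The inhibitors Fst and Sostdc1 were lower in Fgfr2 KO basal cells, at 148 against 422 CPM (42 and 525 UMIs, log2 ratio −1.51) and at 31.8 against 192 CPM (−2.59, −3.74 to −1.64), the 2 of 6 inhibitors past 2-fold there. None of the 2 ligands, 3 receptors and 3 Smads with enough UMIs was past 2-fold in basal cells, with Bmp7 at 38.9 and 53.0 CPM (11 and 66 UMIs, −0.45, −1.52 to 0.49). In luminal cells 1 of 4 ligands and 1 of 8 inhibitors were 2-fold lower (none and 2 by the rule), none was higher, and none of 4 receptors and 3 Smads was past 2-fold. Hes1, a Notch target, was lower in basal cells (173 against 597 CPM, log2 ratio −1.78, −2.23 to −1.37) and level in luminal cells (570 against 600 CPM). Bhlhe40 and Bhlhe41, clock-related repressors, were lower in luminal cells (log2 ratios −1.01 and −1.54). Of 7 bHLH genes 1 was higher and 2 lower in basal cells, and of 9 none was higher and 2 lower in luminal cells (3 by the rule). Among 6 Cdk inhibitors 2 were lower in each class (3 in basal cells by the rule) and none was higher: Cdkn1a had log2 ratios of −0.95 and −0.69 in basal and luminal cells, Cdkn2a of −0.67 (3 UMIs in Fgfr2 KO) and −1.49, and Cdkn2b of −2.53 (2 UMIs in Fgfr2 KO) and −0.42.

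In immune cells of Ctrl several lists lay below their level in the keratin cells with at least 10 keratin UMIs: 7 of 8 BMP inhibitors, 5 of 7 BMP targets, 3 of 4 ligands and 3 of 6 receptors were at least 2-fold lower, where 21.4% of all genes were. Genes shared by the inhibitor and target lists count in both here and in Fgfr2 KO. The receptor Acvrl1, named after its values were seen, was 2-fold higher there, where 9.51% of all genes were, at a log2 ratio of 2.75 (1.92 by the rule). The class included 2 endothelial cells, whose part in the values of Acvrl1 and Tcf4 was not tested. In Fgfr2 KO, 3 of 4 inhibitors, 2 of 3 targets, 2 of 2 receptors and the 1 ligand with enough UMIs were lower, where 19.5% were, and none of these was higher. Of the E proteins in Ctrl, Tcf3 (log2 ratio −0.95) and Tcf12 (−0.63) were lower and Tcf4 higher, at 81.8 CPM in immune and 50.3 CPM in keratin cells (0.70, 0.34 to 1.05). In Fgfr2 KO Tcf4 had the opposite sign, at 29.5 and 64.8 CPM (8 and 53 UMIs, −1.14, −2.42 to −0.053).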

How the data were processed

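Single-cell libraries of the 10x Genomics platform, 1 for each group, were analysed from 1 table. The values deposited by the authors are whole UMI counts for each gene in each cell, not normalized. The authors ran Cell Ranger and combined the 2 libraries by its aggr command, as their methods state. The submitters' processing notes name Cell Ranger 2.1.1 and the build mm10, and the methods give another version. Whether aggregation thinned reads to a like depth, which would lower the counts of the deeper library, was not given in the sources used here. Doublets and cells rich in mitochondrial RNA were kept and tried as alternatives (Scrublet called 2 of 268 Ctrl and 6 of 86 Fgfr2 KO cells). All columns were mapped to a library by their prefix.

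From these counts, the UMIs of a gene in a class and library were summed and scaled to 1000000 UMIs of that class (CPM). Levels have exact Poisson, ratios exact conditional binomial and shares exact Clopper-Pearson 95% intervals. All cover counting error only, and no p-value was computed. A side without UMIs was set to 3 counts for its whole class, which makes the ratio a bound. Ratios between sides that both had 3 UMIs or fewer were not formed, nor were bounds that would have put the side without UMIs higher. Shares were also taken after each cell was thinned to 5393 UMIs, the 10th percentile, leaving out 15 Ctrl and 20 Fgfr2 KO cells. Shares past 2-fold are over genes with at least 20 UMIs in both sides together. Correlations used log2(CPM + 100) and genes with at least 200 UMIs. Marker lists assigned cells where the leading list had at least 3 UMIs. Values are printed for the 4 Id genes, for the 3 genes of each pathway list with the most UMIs, and for the 5 genes most correlated with each Id gene. Genes of marker lists named for single cells were chosen after their values had been seen. The members and lists were chosen with earlier results of these data known. The ratio intervals were tested on simulated Poisson counts, which hold counting error only and no spread between cells. GENCODE M21 held 95.4% of the gene symbols and was used for positions, and promoter sequences came from RefSeq (3 of 4 genes matched). Python 3.11.15, NumPy 2.4.6, SciPy 1.17.1, pandas 2.3.3 and scanpy 1.11.5 were used.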

Additional observations from a re-analysis of the deposited data

Results flagged for a closer look

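The Fgfr2 KO over Ctrl log2 ratio of Id3 had opposite signs by class: −1.64 in basal keratin and −0.38 in luminal keratin cells, against 0.43 in immune cells. The difference between classes was not tested, since each group had 1 library. The interval of the immune value (−0.07 to 0.91) crossed 0, and over the other settings tried it lay between 0.43 and 1.77. Id4 was marked in the same way, with 0.10 in basal keratin against −0.018 in luminal keratin and −3.01 in immune cells, and this was not tested either. The first 2 of these intervals cross 0, and the immune value rests on 1 UMI in Fgfr2 KO.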

How the results depend on the processing

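Of the log2 ratios recomputed for the 4 Id genes under other settings, 19 had the other sign than a reported value whose counting interval lay clear of 0. Of the rest, 235 stayed within the interval of the reported value and 75 moved outside it, and both of these include ratios on the other side of 0 from a reported value whose interval crossed 0. A pseudocount of 10 CPM kept 2 of the 5 most correlated genes of Id1, Id2 and Id3 each. Log2 ratios are given below as basal over luminal keratin, immune over keratin cells, and Fgfr2 KO over Ctrl. Leaving out Scrublet doublets or cells over 25% mitochondrial UMIs kept all 28 ratios each within their intervals.

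With at least 10 keratin UMIs, basal over luminal in Ctrl was 2.27 for Id1, 0.48 for Id2 and 0.94 for Id3, and in Fgfr2 KO 0.32 for Id2 and 0.65 for Id3. Immune over keratin cells was 2.08 (Id1) and 1.67 (Id2) in Ctrl and 2.48 (Id2) and 0.72 (Id3) in Fgfr2 KO. Fgfr2 KO over Ctrl was −0.76 (Id2) in basal and 0.22 (Id1), −0.59 (Id2) and −1.15 (Id3) in luminal cells. With the top cell left out as well, a setting added after the data were seen, basal over luminal was 2.37 (Id1) in Ctrl and 0.069 (Id2) and −1.60 (Id3) in Fgfr2 KO, immune over keratin cells 0.48 (Id1), 1.74 (Id2), −1.65 (Id3) and −3.73 (Id4) in Ctrl and 2.68 (Id2) and 1.30 (Id3) in Fgfr2 KO, and Fgfr2 KO over Ctrl −1.08 (Id2) and −3.96 (Id3) in basal and −0.79 (Id2) and −1.61 (Id3) in luminal cells.

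With immune cells of at least 2 Ptprc UMIs, immune over keratin cells was −2.31 (Id1), 1.82 (Id2), −2.23 (Id3) and −3.83 (Id4) in Ctrl and 1.67 (Id2), −0.97 (Id3) and −1.28 (Id4, a bound) in Fgfr2 KO, and Fgfr2 KO over Ctrl 1.71 (Id1) and 0.38 (Id2). Without cells led by other lineages, basal over luminal was 2.01 (Id1), 0.49 (Id2) and 1.15 (Id3) in Ctrl and 0.25 (Id2) and 0.55 (Id3) in Fgfr2 KO, immune over keratin cells 2.02 (Id1) and 1.67 (Id2) in Ctrl and 2.44 (Id2) and 0.66 (Id3) in Fgfr2 KO, and Fgfr2 KO over Ctrl −0.75 (Id2) in basal and 0.081 (Id1), −0.51 (Id2) and −0.92 (Id3) in luminal cells.

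Other settings were added after the data were seen. Without cells of at least 10 endothelial or pericyte list UMIs, basal over luminal was 2.30 (Id1) and 0.90 (Id3) in Ctrl and 0.44 (Id3) in Fgfr2 KO, immune over keratin cells −1.58 (Id1) and −2.12 (Id3) in Ctrl and 0.77 (Id3) in Fgfr2 KO, and Fgfr2 KO over Ctrl 0.34 (Id1) and −1.17 (Id3) in luminal and 1.32 (Id1) and 1.55 (Id3) in immune cells. Without immune cells of at least 10 keratin UMIs, immune over keratin cells was −2.18 (Id1), 1.96 (Id2), −3.17 (Id3) and −4.03 (Id4) in Ctrl and 1.64 (Id2) and −0.59 (Id3) in Fgfr2 KO, and Fgfr2 KO over Ctrl 1.52 (Id1) and 1.77 (Id3).

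Where the leading keratin pair had to hold at least 80%, basal over luminal in Ctrl was −0.33 (Id1), −0.026 (Id2) and 5.24 (Id4), and Fgfr2 KO over Ctrl 1.48 (Id2) in basal and 1.34 (Id4) in luminal cells. With the mean of per-cell CPM, basal over luminal was −0.34 (Id2) in Ctrl and 0.62 (Id2) in Fgfr2 KO, immune over keratin cells −0.019 (Id1), −1.88 (Id3) and −2.81 (Id4) in Ctrl and 0.70 (Id2) in Fgfr2 KO, and Fgfr2 KO over Ctrl 1.45 (Id2) and −2.18 (Id3) in basal, 0.49 (Id2) in luminal and −0.58 (Id1) in immune cells. Relative to the median gene, immune over keratin cells in Ctrl was 1.86 (Id2) and −0.79 (Id3). Without the top cell of each gene, basal over luminal was 2.02 (Id1) in Ctrl and 0.75 (Id2) and −2.44 (Id3) in Fgfr2 KO, immune over keratin cells 0.057 (Id1), −1.78 (Id3) and −3.66 (Id4) in Ctrl and 1.52 (Id2) and 0.70 (Id3) in Fgfr2 KO, and Fgfr2 KO over Ctrl 0.50 (Id2) and −4.19 (Id3) in basal and −1.17 (Id3) in luminal cells. The cause of these shifts was not tested. No value could be had where both sides had 3 UMIs or fewer, or where the bound would have put a side without UMIs higher. This was so for Id1 and Id4 in 7 cases.

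Counts of genes past 2-fold depended on the minimum of UMIs. With at least 20, at least 50 and at least 1 on each side they were 1448, 755 and 2920 (basal over luminal in Ctrl), 1106, 372 and 3023 (the same in Fgfr2 KO), 3240, 2087 and 4314 (immune over keratin cells in Ctrl), 1786, 700 and 3526 (the same in Fgfr2 KO), and for Fgfr2 KO over Ctrl 1067, 335 and 2821 in basal, 1196, 543 and 2482 in luminal and 1266, 457 and 2935 in immune cells.

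No paired analysis was possible because each group had 1 library. Depth limits Id1 and, outside basal cells, Id4, whose Fgfr2 KO values rest on 1 to 8 UMIs a class. Mouse, sort and library cannot be told apart from genotype, and intervals omit the spread between cells.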

Other observations

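Cells with at least 10 UMIs of the GFP reporter and no Ptprc numbered 5 in Ctrl (3 luminal and 2 basal keratin) and 8 in Fgfr2 KO (6 and 2), with median depths of 10123 and 26080.5 UMIs. In these Id3 stood at 408 CPM in Ctrl (255 to 617) and 48.4 CPM in Fgfr2 KO (24.2 to 86.7), and Id2 at 463 CPM (300 to 684) and 132 CPM (89.1 to 189). In Ctrl, 15 of 25 Id2 UMIs came from 1 luminal keratin cell, and without the top cell the Id2 levels were 242 and 89.2 CPM and the Id3 levels 314 and 46.8 CPM. Most of these cells were not of the basal keratin class of the green donors, and the classes are mixed in both values. Id4 stood at 37.1 CPM (4.49 to 134) and 52.8 CPM (27.3 to 92.3), and Id1 had 1 and 3 UMIs.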
